A study of Acromyrmex echinatior with 18 samples.

Results

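Levels of RNA editing in the heads of Acromyrmex echinatior, a leaf-cutting ant, were compared among 3 colonies, Ae322, Ae356 and Ae363. Of the 18 libraries of the study, the 9 RNA libraries were used, 3 from each colony, and caste was taken out of every comparison. Each colony gave 1 library of gynes (females that can become queens), 1 of large workers and 1 of small workers. A gyne or large worker library came from 50 pooled heads and a small worker library from 200, and DNA came from the bodies of the same pools. All colonies had been collected in Gamboa, Panama, and were kept in the laboratory on a common diet, and no treatment is named. A colony is therefore represented by 3 pools of different castes and by no second pool of 1 caste. Colony identity itself cannot be checked with this table, and the labels give no sequencing batch.

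The editing level of a site in a library was the number of RNA reads with the edited base divided by all reads there, in percent. Of the 17229 sites in the deposited table, 5720 (33.2%) had 10 or more RNA reads in all 9 libraries and were tested. Of these, 5100 were A-to-G changes and 620 were other changes. RNA reads over the whole table numbered 650644, 758457 and 933434 in Ae322 gynes, large workers and small workers, 616810, 479998 and 1037408 in Ae356, and 546748, 508737 and 825726 in Ae363. The median tested site had 50.0, 59.0 and 79.0 reads in the Ae322 libraries, 46.0, 34.0 and 85.0 in Ae356 and 42.0, 38.0 and 68.0 in Ae363. At the median depth of 54.0 reads and the median level of 7.26%, counting error alone gives 1 level an SD of 3.53 percentage points. Every site had at least 10 DNA reads and 0 DNA reads with the edited base in each of the 9 DNA libraries, because only such sites are in the table. Reads carry no molecular identifiers, so all limits from read numbers cover counting error only.

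In animals, editing mostly converts adenosine to inosine, and a sequencer reads inosine as guanosine. The ADAR enzymes that do this bind double-stranded RNA, so sites tend to lie in clusters where a transcript folds back on itself, often in untranslated regions, introns and transposable elements (TE). The level at a site depends on that fold and on the enzyme, and base changes near a site can alter it. Ants of 1 colony are a family, which shares more of its alleles than ants of different colonies do. The other base changes in the table have no single known enzyme behind them.

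The colonies' mean editing levels lay within 0.522 points of each other. Over the 5720 sites the mean level was 12.03, 14.27 and 15.73% in Ae322 gynes, large workers and small workers, 11.66, 13.21 and 15.6% in Ae356, and 11.61, 13.45 and 15.96% in Ae363. The colony means of 14.01, 13.49 and 13.67% compare with caste means that span 4.0 points. Relative to the mean of their caste, the libraries deviated by 0.287 ± 0.332 points in Ae322, -0.235 ± 0.176 points in Ae356 and -0.0521 ± 0.215 points in Ae363 (SD, n = 3 castes). The test found no difference among colonies beyond this spread (exact permutation test of the F statistic with colonies exchanged within castes, 216 arrangements, p = 0.167, where the smallest p possible is 0.0278).

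Between pairs of colonies, Ae322 was above Ae356 by 0.375 points for gynes, by 1.06 for large workers and by 0.126 for small workers, a mean of 0.522 ± 0.486 (SD, n = 3; exact two-sided sign-flip permutation p = 0.25, the smallest that 3 pairs allow; adjusted over 3 pairs, 0.5). Ae322 minus Ae363 averaged 0.339 ± 0.532 points, and Ae356 minus Ae363 averaged -0.183 ± 0.209 points (SD, n = 3 castes each; exact sign-flip permutation p = 0.5 for both, adjusted 0.5). In both of these pairs the sign was not the same in all castes.

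A-to-G sites had colony means of 15.33% in Ae322, 14.78% in Ae356 and 14.99% in Ae363 (exact permutation p = 0.167). The 620 sites with other changes had 3.005, 3.349 and 3.048% in Ae322 gynes, large workers and small workers, 2.728, 3.151 and 2.795% in Ae356, and 2.556, 3.145 and 2.839% in Ae363. Here Ae322 was highest in all 3 castes, and the 3 colony means span 0.288 points against 0.452 points for the caste means. Its exact permutation p was 0.0833, or 0.251 adjusted over the 9 groups of sites that were compared. By element, the colony means spanned 0.521 points at 3' UTR sites, 0.559 in introns, 0.4 in coding sequence, 0.366 in 5' UTRs, 0.346 in TEs outside genes and 0.605 at sites without annotation. No group passed adjustment, and the lowest adjusted exact permutation p was 0.251.

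**Figure D1:**
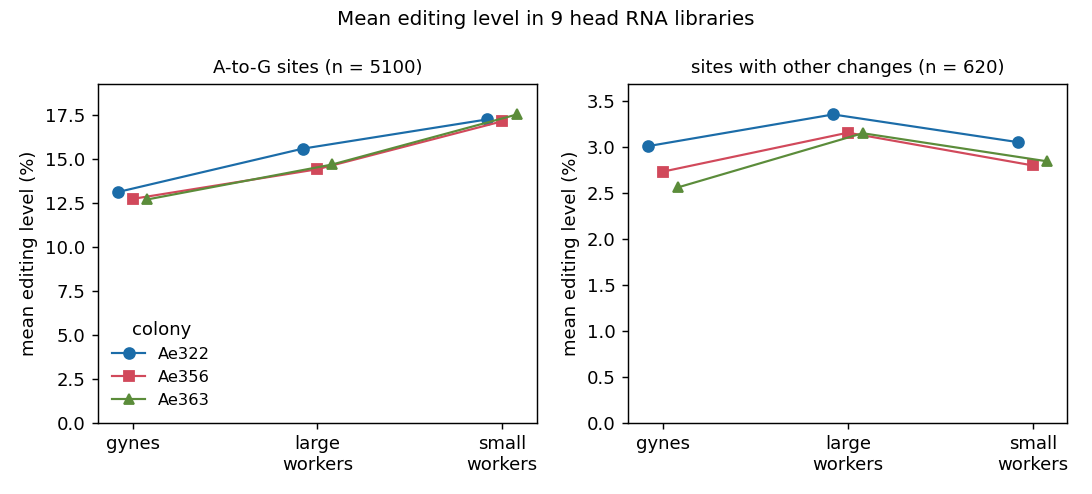
Mean editing level (%, vertical axis from 0) of A-to-G sites and of sites with other changes in each of the 9 libraries; each point is 1 library, colours and symbols mark the colony, and lines join the castes of a colony. The 3 colonies lie close together at A-to-G sites (colony means from 14.78 to 15.33%), and Ae322 is the highest in every caste at sites with other changes.

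Site by site, no colony difference passed adjustment. A quasi-binomial model with caste and colony, with moderated dispersion and Benjamini-Hochberg adjustment over all sites, called 0 of 5720 sites (0.0%), and 279 (4.88%) had an unadjusted p under 0.05. With limma on arcsine-square-root levels 0 sites were called and 351 were under 0.05 unadjusted. The pairwise contrasts of the quasi-binomial fit called 0 sites each, with 347 (6.07%) under 0.05 unadjusted for Ae322 minus Ae356, 316 (5.52%) for Ae322 minus Ae363 and 310 (5.42%) for Ae356 minus Ae363. In the same fit the caste terms had 751 sites (13.13%) under 0.05 unadjusted and 0 after adjustment. The count of 0 depends on the model: it was 9 when sites averaging under 5% were left out, 15 without the caste term and 357 without a lower bound of 1 on the dispersion. Without that bound, the spread assumed for a site can be smaller than counting error alone gives. The 9 and the 15 share 7 sites. All 17 sites of their union keep a colony's rank, but ranks and fits use the same levels, so this is no independent support. With 1 library per caste and colony the fit had 4 residual degrees of freedom.

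Ranks kept across castes are given as a description with no test. Colonies in random order would also keep a rank at some sites, and that share was not worked out here. The number of sites or genes that keep a rank is therefore by itself no sign of a colony difference. A colony was strictly the highest or strictly the lowest in all 3 castes at 994 of 5720 sites (17.4%). Ae322 was highest at 262 (4.58%) and lowest at 124 (2.17%). Ae356 was highest at 191 (3.34%) and lowest at 204 (3.57%), and Ae363 was highest at 184 (3.22%) and lowest at 174 (3.04%). The whole order of the colonies was the same in all castes at 145 sites (2.53%). With the roles exchanged, 1 caste was highest or lowest in all 3 colonies at 1617 sites (28.3%), among them 827 with small workers highest and 642 with gynes lowest. Ae322 kept the top rank at more sites than it kept the bottom rank, while the counts of the other colonies were closer to each other. Ae322 also had the deepest libraries of gynes and large workers. When reads were thinned at each site to the smallest number among the 3 colonies of a caste, a comparison added after the data had been seen and one that makes more levels equal, 605 sites (10.6%) kept a rank, and Ae322 was highest at 170 and lowest at 73.

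**Figure D2:**
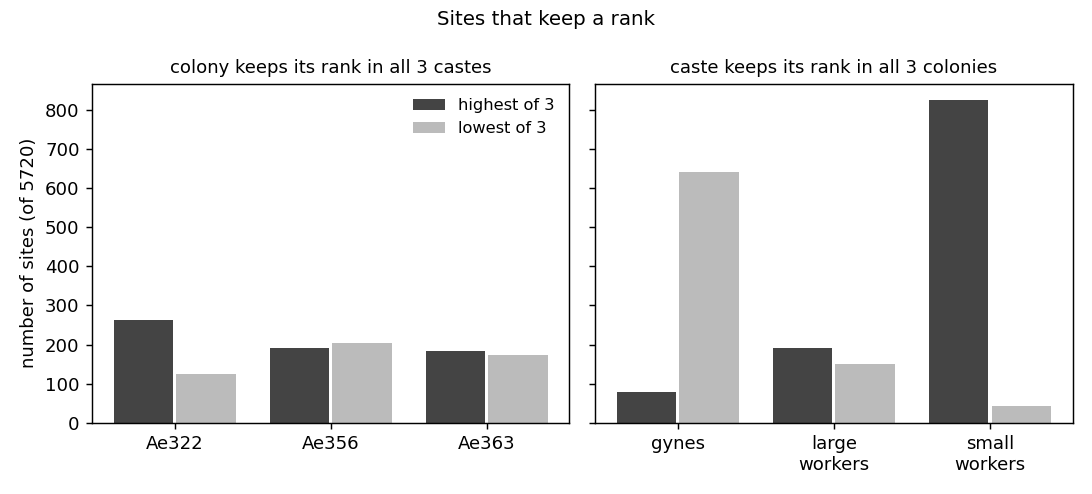
Number of sites (vertical axis, of 5720 tested) at which 1 colony was strictly the highest or lowest of the 3 in all 3 castes (left), and at which 1 caste was so in all 3 colonies (right). Ae322 has the tallest colony bar with 262 sites highest, and small workers (827 sites highest) and gynes (642 sites lowest) stand above all colony bars.

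Kept ranks were mostly small differences. The gap of a site was taken as the smallest distance in level, over the 3 castes, between the ranked colony and the nearest other colony. Its median over the 994 sites was 1.52 points. Counting error gives 1 level at median depth an SD of 3.53 points, but a smallest distance is small by construction. The gap reached 5 points at 122 sites, 10 points at 24 and 20 points at 1, against 331, 89 and 6 of the 1617 sites ranked by caste, whose median gap was 2.11 points. By kind of change, a rank was kept at 931 of 5100 A-to-G sites (18.3%) and at 63 of 620 other sites (10.2%). The other sites have lower levels, and the share was 0.562% at sites with a mean level under 1%, 13.2% from 1 to 5%, 20.1% from 5 to 20% and 20.9% above. By element, a rank was kept at 18.4% of 3' UTR sites, 18.5% of intron sites, 12.4% of coding sites, 8.11% of 5' UTR sites, 18.1% of TE sites outside genes and 16.7% of sites without annotation, which brackets the 17.4% of all sites.

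A colony's rank held in 2 castes recurred in the left-out caste at 32.2 to 36.6% of sites. Sites were picked where 1 colony was highest in 2 castes, and the share of them where it was also highest in the left-out caste was 34.9% for gynes, 36.5% for large workers and 36.6% for small workers. Without any such choice, a colony was highest at 28.3 to 33.3% of sites in gynes and 30.2 to 34.1% in small workers. In large workers this share ran from 27.8% (Ae356) to 36.9% (Ae322). For the lowest rank the shares in the left-out caste were 33.0, 32.2 and 35.5%. A colony was lowest without such a choice at 23.9 to 27.7% of sites in gynes and 29.3 to 31.3% in small workers. In large workers this share ran from 19.4% (Ae322) to 33.4% (Ae356). With a lead of 10 points or more in both castes, 38 of 99 sites kept the top rank in gynes (38.4%, Wilson 95% interval 29.4 to 48.2), 34 of 66 in large workers (51.5%, 39.7 to 63.2) and 44 of 98 in small workers (44.9%, 35.4 to 54.8). For the bottom rank these shares were 37.7, 36.2 and 37.1%, from 53, 58 and 70 sites. With castes ranked in place of colonies, the left-out colony kept the top rank at 60.9, 60.0 and 67.7% and the bottom rank at 56.7, 57.7 and 55.6% of sites with a lead of 10 points. The intervals count sites as if they were independent, which neighbouring sites are not, and this comparison was added after the data had been seen.

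**Figure D3:**
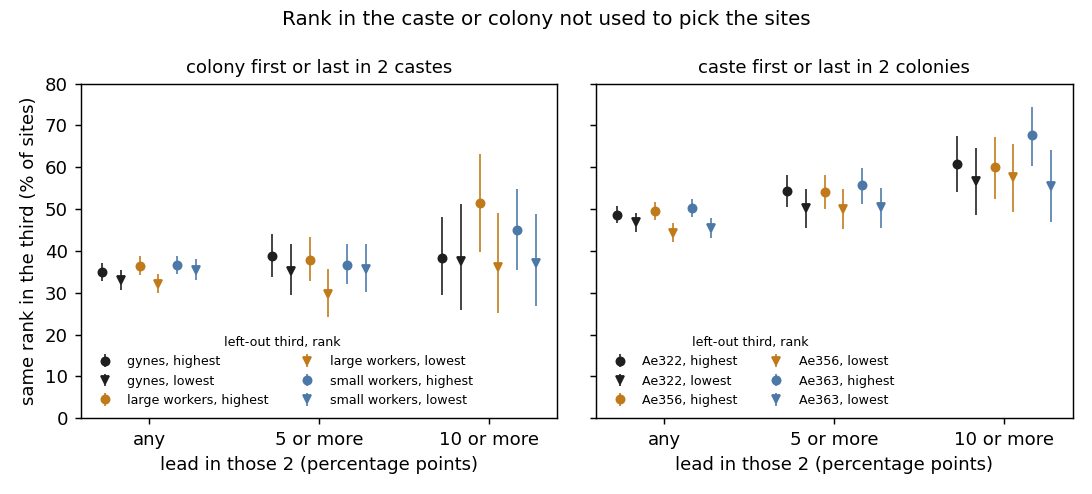
Share of sites (vertical axis, %) that kept the rank in the left-out caste (left) or colony (right), for sites picked by the other 2 with any lead, 5 points or more or 10 points or more (horizontal axis); circles stand for the highest and triangles for the lowest rank, bars are Wilson 95% intervals. For colonies the points lie between 29.6 and 51.5%, and for castes between 44.3 and 67.7%.

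At a few sites 1 colony lay well apart from the others in every caste, without passing adjustment. Adjusted p-values under 0.5 in the quasi-binomial fit were reached at 3 sites. A pair of them were neighbours, positions 859908 and 859910 of scaffold 708 in the Aech_2.0 assembly, in an intron and TE of Aech_10895. Sites so close can lie on the same reads, so the pair is not independent. At 859908, an A-to-C change, the level was 5.47, 4.11 and 5.1% in Ae322 gynes, large workers and small workers, 0.204, 0.207 and 0.3% in Ae356 and 4.6, 3.76 and 4.46% in Ae363, from 1109 to 2579 reads. Ae356 lies apart from the others in every caste, and the adjusted p was 0.147. At 859910, a C-to-A change, the levels were 5.89, 4.4 and 5.06% in Ae322, 1.79, 0.969 and 1.14% in Ae356 and 5.17, 4.16 and 5.16% in Ae363 (adjusted p = 0.427). Neither change is the one ADAR makes. The mean of 4.27% at 859908 in Ae363 lies within the 4.84% that 0 of its 62 DNA reads allows, while the mean of 4.89% in Ae322 lies above the limit of 3.3% there.

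The third site, with an adjusted p of 0.427, was an A-to-G change in a TE within the 3' UTR of Aech_06052, a calcium/calmodulin-dependent protein kinase type II alpha chain. This kinase responds to calcium in neurons and takes part in memory in insects and mammals. At position 1020245 of scaffold 433 the level was 21.7, 34.8 and 28.8% in Ae322 gynes, large workers and small workers, 36.9, 46.2 and 43.3% in Ae356, and 34.2, 48.5 and 44.5% in Ae363, from 360 to 1215 reads. Ae322 was the lowest in each caste by at least 11.3 points, with a mean of 28.5 ± 6.57% against 42.1 ± 4.74% in Ae356 and 42.4 ± 7.41% in Ae363 (SD, n = 3 castes). The gene had 14 tested sites, and 5 of the 6 that lie from 6675 to 6774 bases above the lowest coordinate kept Ae322 lowest. One of them, at position 1020321, had 5.57, 11.7 and 9.24% in Ae322, 12.9, 19.4 and 15.8% in Ae356 and 12.5, 15.3 and 15.2% in Ae363. Another, at 1020343, had 1.42, 1.97 and 2.49% in Ae322, 7.44, 5.17 and 6.31% in Ae356 and 2.29, 2.96 and 5.23% in Ae363. The exception, at 1020339, had means of 5.34, 4.85 and 5.4%. Sites that close can lie on the same reads of 90 bases, so they are not independent. At the tested site with the lowest coordinate, position 1013569, which comes last in this gene on the minus strand, it was Ae356 that kept the lowest rank and Ae363 the highest. The mean over all 14 sites kept Ae322 lowest by a gap of only 0.602 points (limma adjusted p = 0.902).

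In Atpalpha (Aech_05768), the catalytic subunit of the sodium pump that restores ion gradients in nerve cells, 2 G-to-A sites in the 3' UTR kept Ae356 highest and Ae363 lowest. At position 217485 of scaffold 207 the level was 3.61, 3.99 and 3.9% in Ae322, 9.34, 12.1 and 7.67% in Ae356 and 2.57, 1.82 and 2.37% in Ae363, from 1010 to 1954 reads (adjusted p = 0.609). The Ae356 mean of 9.72% lies above its DNA limit of 5.77%, and the other means below theirs. At 217479 it was 1.69, 2.42 and 2.64% in Ae322, 5.74, 6.49 and 3.73% in Ae356 and 0.461, 0.983 and 0.87% in Ae363. Both G-to-A sites can lie on the same reads, so they are not independent. A C-to-T site at position 217618, in a TE on the opposite strand and assigned to no gene, had 0% in all Ae322 libraries. It had 0, 0 and 0.847% in Ae356 and 9.8, 3.94 and 9.91% in Ae363, where the mean of 7.88% is at the DNA limit of 7.89%. The authors marked this site as called in Ae363 libraries alone, so its low level elsewhere is no independent support. So Ae356 was highest at the G-to-A pair and Ae363 at the C-to-T site. The remaining tested site of the gene, at position 213483, kept no rank.

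Among the sites with the smallest p-values, an intronic A-to-G site of Aech_06234, at position 582528 of scaffold 298, kept the whole order. It had 11.1, 15.8 and 13.7% in Ae322, 17.8, 23.7 and 29.0% in Ae356 and 5.99, 6.72 and 10.8% in Ae363, from 918 to 2577 reads (adjusted p = 0.654). In the 3' UTR of Eap (Aech_17816), an A-to-G site at position 32530 of scaffold 943 had 10.3, 13.1 and 20.6% in Ae322, 14, 10.9 and 13.6% in Ae356 and 1.12, 2.44 and 0.87% in Ae363, from 41 to 136 reads. The widest gap of all tested sites, 38.6 points, was at an A-to-G site without annotation at position 7144 of scaffold 692. Its level was 23.3, 10.3 and 9.62% in Ae322, 61.9, 72.2 and 86.2% in Ae356 and 8.33, 21.6 and 27.3% in Ae363, from 18 to 52 reads. The unannotated and Aech_06234 sites lie outside the rule for named genes and were chosen after their values had been seen.

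**Figure D4:**
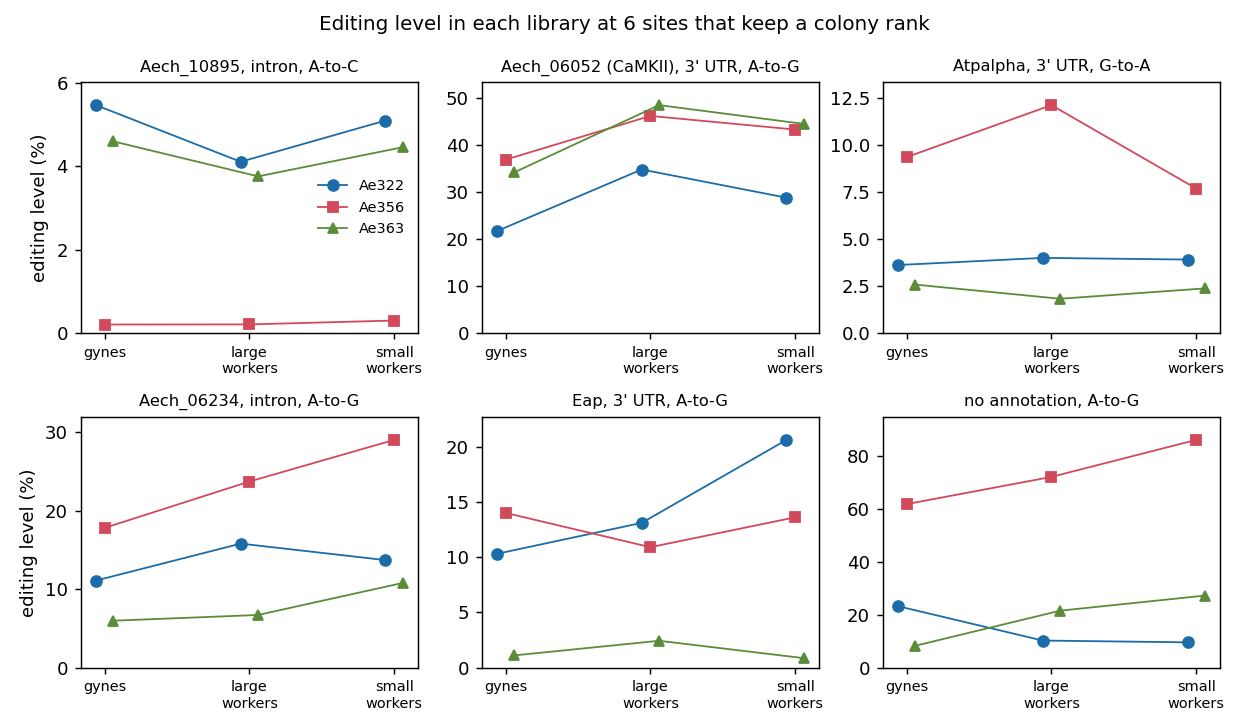
Editing level (%, vertical axes from 0 with different scales) of 6 sites in each of the 9 libraries; each point is 1 library, colours and symbols mark the colony and lines join the castes of a colony. In each panel 1 colony stays on 1 side of the others in all castes, such as Ae356 between 0.204 and 0.3% at the intronic site of Aech_10895.

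Other sites in genes with a wide gap rested on fewer reads. Ae322 was highest in an intron of Nc (Aech_14334), a caspase that in Drosophila starts programmed cell death, with 30, 49.0 and 53.3% in Ae322, 10.0, 0 and 16.4% in Ae356 and 15.2, 22.2 and 13.1% in Ae363, from 18 to 67 reads. The same colony was highest at 3' UTR sites of Nup98-96 (a nuclear pore protein), of Aech_15068 and of CG9760 (Aech_08475), by 11.1, 11.1 and 10.7 points. It was lowest at 3' UTR sites of the SH3 and cysteine-rich domain protein Aech_11399, of the homeobox gene listed as repo (Aech_01834) and of TBPH (Aech_17635), the ant form of the RNA-binding protein TDP-43. Their gaps were 9.27, 8.49 and 7.73 points. At the Aech_11399 site the levels were 4.35, 7.92 and 10.6% in Ae322, 25.4, 17.2 and 27.1% in Ae356 and 17.0, 26.1 and 25.7% in Ae363.

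Ae356 was highest in an intron of Mlf (Aech_06724), where Ae363 was lowest, with 28.0, 30 and 27.3% in Ae322, 44.4, 50.0 and 41.9% in Ae356 and 15.9, 0 and 19.0% in Ae363, from 10 to 63 reads. It was also highest at sites of Adar, of TBPH and of the monocarboxylate transporter CG3409 (Aech_09764), by 9.91, 9.18 and 8.18 points. In TBPH, 1 site thus kept Ae322 lowest and another kept Ae356 highest, at positions 991309 and 986523 of scaffold 142. Ae356 was lowest in introns of Aech_09521 and of the 5-hydroxyisourate hydrolase Aech_01184, an enzyme of uric acid breakdown, and at 3' UTR sites of the diacylglycerol kinase CG34384 (Aech_06104) and of Nup98-96. At the CG34384 site it had 26.1, 55.6 and 76.1%, against 76.5, 83.3 and 88.2% in Ae322 and 80, 72.7 and 84.4% in Ae363, so gynes of Ae356 lay furthest from the rest.

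Ae363 was highest at 3' UTR sites of Eps-15 (Aech_14246), an adaptor of endocytosis, of Aech_06113 and of Caps (Aech_02927), which primes vesicles for calcium-triggered release. At the Eps-15 site the levels were 45.8, 45.7 and 60.0% in Ae322, 42.1, 36.4 and 50.0% in Ae356 and 65.8, 56.7 and 71.0% in Ae363, from 11 to 50 reads. It was also highest at an intronic G-to-A site of l(2)34Fd (Aech_14582), with 15.4, 27.8 and 17.8%, against 7.32, 10.8 and 5.13% in Ae322 and 8.82, 16.7 and 11.1% in Ae356. Ae363 was lowest in an intron of snama (Aech_11890) and at the sites of Mlf, Eap and bol. None of these lower-depth sites passed adjustment, and each had p = 0.748 after adjustment in the quasi-binomial fit.

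For the kinds of change not yet given, the sites with the widest gaps were without annotation or in a TE outside genes. An A-to-T site at position 810405 of scaffold 262 had 0, 2.63 and 2.27% in Ae322, 8.33, 7.04 and 6.67% in Ae356 and 18.8, 5.56 and 5.36% in Ae363. A G-to-T site and a T-to-G site at positions 1979758 and 1979760 of scaffold 99 kept Ae356 highest, with 3.61, 9.23 and 2.86% and with 3.45, 12.5 and 5.88% in that colony. Outside Ae356, their levels were 0% in all but Ae322 large workers, which had 1.67 and 1.47%. Sites so close can lie on the same reads, so this pair is not independent. A T-to-C site at position 195411 of scaffold 190 had 1.5, 6.12 and 2.21% in Ae322 and 0% in all 6 libraries of the other colonies. The authors marked the scaffold 99 pair as called in Ae356 libraries alone and the T-to-C site in Ae322 libraries alone. Such sites were listed through the colony where they are high, so low levels elsewhere are no independent support.

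Coding sites kept a rank at 25 of 202, and none of these had a gap of 10 points. The widest, chosen after the values had been seen, was an A-to-G site of CG31712 (Aech_07156), with 30.3, 31.0 and 39.5% in Ae322, 25.0, 15.8 and 29.5% in Ae356 and 7.14, 23.5 and 25.0% in Ae363. In jar (Aech_07837), which encodes an unconventional myosin, a G-to-A coding site had 5.22, 4.92 and 4.0% in Ae322, 11.7, 12.3 and 9.4% in Ae356 and 5.71, 6.67 and 4.41% in Ae363. In the gene for tipE (Aech_01796), a sodium channel partner in Drosophila, an A-to-G coding site kept Ae356 highest with 84.8, 69.2 and 67.5%, against 70.7, 62.5 and 63.1% in Ae322 and 55.2, 63.0 and 61.8% in Ae363. The tipE site was also chosen after its values had been seen. Effects of these changes on the protein were not analysed here.

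Sites that kept a rank lay near each other more often than sites in general. Of kept sites with a tested neighbour within 100 bases, the nearest neighbour kept the same colony highest for 36 of 221 in Ae322 (16.3%), 21 of 159 in Ae356 (13.2%) and 14 of 158 in Ae363 (8.86%). Over all 4679 sites with a neighbour the corresponding shares were 5.28, 3.31 and 3.48%. For the lowest rank the shares were 8.04, 8.0 and 7.89%, against 2.37, 3.87 and 3.14% over all sites. Neighbours can share reads, which are 90 bases long, and the part of this was not tested.

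DNA reads give a limit on a base difference in the genome, but only sites with 0 edited DNA reads are in the table. A count of 0 of n DNA reads allows a share of up to 3 reads in n, and the median of this limit was 3.75% at the 994 sites, for the 3 DNA libraries of the colony with the highest level. The mean level of that colony was above its limit at 956 of the 994 sites (96.2%), at all 24 with a gap of 10 points and at 55 of the 63 with other changes. For all 5720 sites the share was 84.8%. They include more sites of low level, since sites averaging under 1% kept a rank at only 0.562%. The limit concerns the edited base itself in the DNA and says nothing of other base differences near a site. As the 0 was a condition for listing a site, it is no test of a genomic difference.

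Gene by gene, 1 of 700 genes (0.143%) was called. A gene's level, averaged over its tested sites, was compared with limma on the arcsine-square-root scale, and 33 genes (4.71%) had an unadjusted p under 0.05. The called gene was bol (Aech_05903), which encodes boule, an RNA-binding protein that in Drosophila acts in male meiosis (adjusted p = 0.0434). It had 1 tested site, an A-to-G change in a TE within its 3' UTR at position 368347 of scaffold 104. Edited reads were 3 of 26, 5 of 38 and 7 of 36 in Ae322 gynes, large workers and small workers, 3 of 22, 1 of 11 and 4 of 32 in Ae356, and 0 of 13, 0 of 15 and 0 of 24 in Ae363. The 0 of all Ae363 reads allows a level of up to 5.77% there, against means of 14.7 ± 4.18% in Ae322 and 11.7 ± 2.37% in Ae356 (SD, n = 3 castes). The limma test takes no account of the few reads, whereas the quasi-binomial fit does and gave this site p = 0.748 after adjustment. With limma, no gene was called at a minimum of 5 or 20 reads, nor without any 1 of the 9 libraries, where 33 to 39 genes had an unadjusted p under 0.05.

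The mean level of 118 genes (16.9%) kept a colony's rank in all castes, 30 of them with Ae322 highest and 13 with it lowest, 25 and 25 for Ae356 and 23 and 24 for Ae363. Among the 230 genes with 3 or more tested sites, 59 (25.7%) kept a rank. A caste kept its rank in all colonies for 218 of 700 genes (31.1%) and for 140 of the 230 (60.9%). The 994 sites include 481 in genes, spread over 231 genes, and at most 7 sites of 1 gene kept the same rank.

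In Aech_06113, an uncharacterized protein, most sites kept the same rank. Of its 8 tested A-to-G sites, which lie within 65 bases of the 3' UTR, 5 kept Ae363 highest and none kept another rank. All 8 can lie on the same reads, so they are not independent. The gene was named partly for its number of ranked sites. At position 140618 of scaffold 501 the level was 36.4, 38.2 and 37.4% in Ae322, 33.3, 40.3 and 30.8% in Ae356 and 56.7, 49.3 and 56.3% in Ae363. At position 140603 it was 0, 5.94 and 5.29% in Ae322, 7.27, 2.47 and 1.93% in Ae356 and 20.7, 12 and 17.3% in Ae363. The gene mean was 14.7, 14.6 and 13.2% in Ae322, 12.7, 17.6 and 11% in Ae356 and 23.1, 20.9 and 22.1% in Ae363 (limma adjusted p = 0.804, unadjusted 0.0315). Ae363 lies above both other colonies in every library, while Ae322 and Ae356 overlap, and 3 of the 8 sites, among them the first of the cluster, kept no rank.

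**Figure D5:**
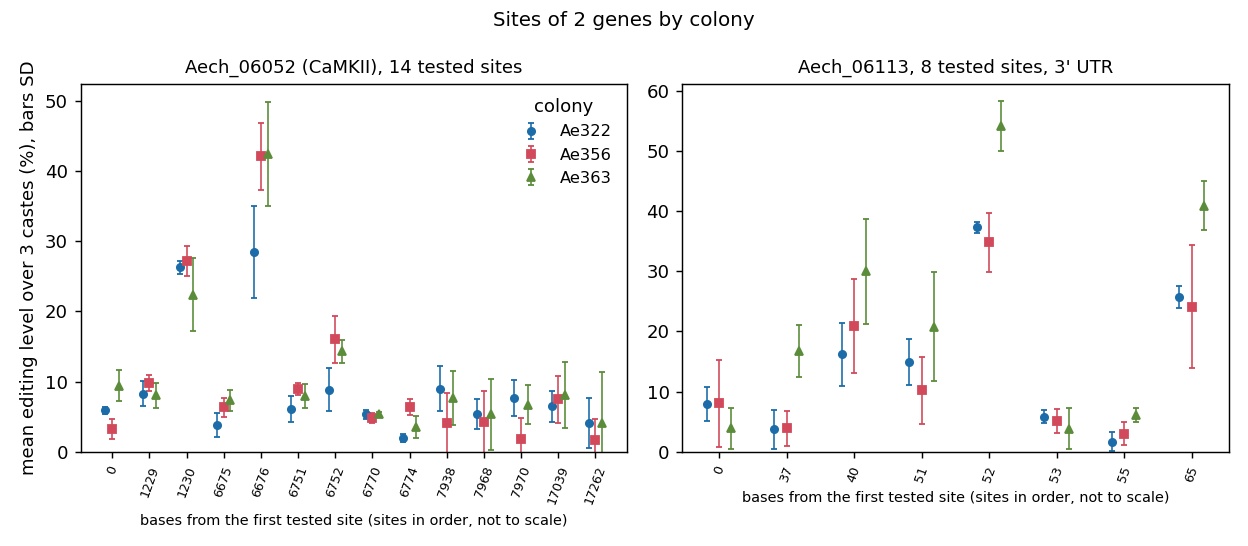
Mean editing level over the 3 castes (%, vertical axis, bars SD over castes) at each tested site of Aech_06052 and Aech_06113, in order along the scaffold, with the distance in bases from the first site on the horizontal axis (not to scale). Ae322 is lowest at 5 of the 6 sites of Aech_06052 from 6675 to 6774 bases, and Ae363 is highest by a margin at the 3' UTR sites of Aech_06113 at 37, 52 and 65 bases.

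In Aech_01184, the 5-hydroxyisourate hydrolase, 13 A-to-G sites within 77 bases of an intron were tested, and 4 kept Ae322 highest and 3 kept Ae356 lowest. These 13 sites can also lie on the same reads and are not independent. This gene too was named partly for its number of ranked sites. The gene mean was 9.15, 7.26 and 9.94% in Ae322, 2.71, 3.47 and 6.32% in Ae356 and 4.43, 9.24 and 12.3% in Ae363. It kept Ae356 lowest by a gap of 1.72 points (limma adjusted p = 0.804, unadjusted 0.0698). At position 505794 of scaffold 244 the level was 25.7, 39.1 and 37.5% in Ae322, 7.94, 9.09 and 19.2% in Ae356 and 15.9, 17.9 and 35.3% in Ae363. One site of the cluster, at position 505819, had the reverse order, with Ae322 lowest and Ae356 highest.

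In 2 long clusters the sites did not share a rank. Hsc70-4 (Aech_00116), a chaperone, had 58 tested sites, of which 7 kept Ae356 lowest, 6 kept Ae363 highest and 3 each kept Ae322 highest and Ae322 lowest. Its mean level of 11.1, 13.9 and 16.9% in Ae322, 11.9, 13.6 and 15.3% in Ae356 and 11.6, 14 and 16.7% in Ae363 kept no rank (limma adjusted p = 0.992). Mdh1 (Aech_13462), a malate dehydrogenase, had 81, with 5 each for Ae322 lowest, Ae356 highest and Ae363 lowest, and means of 12.6, 15.4 and 17.3% in Ae322, 14, 14.1 and 17.4% in Ae356 and 13.2, 13.7 and 16.4% in Ae363 (adjusted p = 0.982).

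Other genes with 3 or more tested sites whose mean kept a rank included Rdl (Aech_17865), an inhibitory neurotransmitter receptor. Its 5 intronic sites averaged 16.4, 23.1 and 25.8% in Ae322, 15.0, 23.9 and 28.8% in Ae356 and 9.23, 14.4 and 21.6% in Ae363, which was lowest in each caste by at least 4.25 points. The mitochondrial carrier Bmcp (Aech_09751) had 10.2, 10.3 and 14.3% in Ae322, 3.51, 5.56 and 6.79% in Ae356 and 12.5, 14.3 and 10.9% in Ae363. The RNA-binding protein Aech_12988 likewise kept Ae356 lowest, with 7.14, 12.4 and 11% in Ae322, 3.25, 4.14 and 6.71% in Ae356 and 7.63, 10.7 and 11.9% in Ae363. Ae322 was highest in CG9760, Aech_15068 and Aech_02603, by 4.78, 2.85 and 2.06 points, and Ae363 in the 13 sites of Eps-15, by 2.36 points. None of these genes passed adjustment, each with a limma adjusted p of 0.804.

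Adar (Aech_00367), the editing enzyme's own gene, had 5 tested A-to-G sites in a TE within its 5' UTR. Their mean was 22.7, 20.6 and 20.8% in Ae322, 28.7, 25.0 and 24.1% in Ae356 and 38.9, 24.1 and 21.4% in Ae363, with Ae322 lowest by as little as 0.528 points (limma adjusted p = 0.804). At position 702714 of scaffold 326 the level was 73.3, 62.8 and 59.3% in Ae322, 87.5, 78.9 and 69.2% in Ae356 and 52.9, 66.7 and 47.8% in Ae363, from 15 to 120 reads. These are editing levels of its transcript and not its expression, which the table does not give.

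Across 14 gene lists matched by words in the gene names, no list held a called gene. A match of words is not a function: the detoxification list also holds phosphodiesterases, a thioesterase and a glycoprotein glucosyltransferase, the immune list holds Tap42, and the muscle list holds jar. Over all 700 genes the median span of the 3 colony means was 2.57 points. It was 2.82 points in 11 ion channels and neurotransmitter receptors, 2.26 in 8 synaptic vesicle genes, 2.42 in 49 kinases and phosphatases, 2.35 in 27 RNA-binding and processing genes, 2.89 in 23 transcription factors, 1.57 in 18 energy metabolism genes, 1.81 in 7 genes of the muscle list, 3.41 in 17 transporters, 4.32 in 9 genes of the detoxification list, 5.0 in 8 chaperones and 2.74 in 4 genes of the immune list. The editing and double-stranded RNA list had 2 tested genes with a median span of 5.53 points, and the chemosensory and transposon lists had 1 each. Unadjusted p-values under 0.05 numbered 3 of 17 among transporters, 1 each among channels, chaperones, muscle, RNA-binding and transcription factor genes and 0 in the other lists, beside the 4.71% of all genes. A rank was kept by 5 of 17 transporters, 5 of 49 kinases and phosphatases, 5 of 23 transcription factors, 4 of 27 RNA-binding genes, 3 of 18 energy genes, 3 of 8 chaperones and 2 of 11 channels, beside 16.9% of all genes. In the smaller lists it was kept by 2 of 7 muscle, 1 of 8 synaptic, 1 of 9 detoxification, 0 of 4 immune and 1 of 2 double-stranded RNA genes, by the 1 chemosensory gene and not by the 1 transposon gene.

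The member with the smallest p among the chaperones was Tcp-1eta (Aech_12625), a subunit of the chaperonin that folds actin and tubulin. Its 2 adjacent 3' UTR sites averaged 14.2, 10.3 and 23% in Ae322, 4.09, 0 and 13.0% in Ae356 and 0, 0 and 10.4% in Ae363 (limma adjusted p = 0.383), from 11 to 59 reads. Among synaptic genes it was Aech_13875, a dynamin that pinches off vesicles, with 10.8, 11.8 and 10.6% in Ae322, 14.1, 16.9 and 16% in Ae356 and 11.9, 13.8 and 15.8% in Ae363. The odorant-binding protein Aech_03054, listed as pheromone-binding protein Gp-9, had 2.39, 0.714 and 0.288% in Ae322, 2.23, 0 and 1.43% in Ae356 and 5.45, 3.28 and 1.92% in Ae363. For Oscp (Aech_01014), an ATP synthase subunit, Ae322 small workers stood apart with 58.1%, against 28.0% in Ae356 and 28.2% in Ae363. The smallest p in the other lists belonged to Ssl1 (Aech_08607), NiPp1 (Aech_10874), Cytochrome P450 6A1 (Aech_12995), Spn27A (Aech_07708) and a Mariner transposase (Aech_16596), each with an adjusted p of 0.804.

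The authors' own marks of where a site was called give a second view, over all 17229 sites. A site was marked in all 3 castes at 7066 positions in Ae322, 5299 in Ae356 and 5523 in Ae363, and in all 9 libraries at 3065. Marked in all 3 castes of 1 colony and in no other library were 30 sites in Ae322, 13 in Ae356 and 4 in Ae363, 38 of these 47 A-to-G. The same count with castes in place of colonies was 194, of which 169 were marked in small workers alone. Depth differs in the same way, with Ae322 deepest in gynes and large workers and small workers deepest in every colony, and its part in these counts was not tested.

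A mark in 1 colony does not always mean that the others had no edited reads. In 19 of the 30 Ae322 sites, 4 of the 13 Ae356 sites and 2 of the 4 Ae363 sites, the other colonies had 0 edited reads. At 6 of the 19, 1 of the 4 and 1 of the 2, at least 1 other colony had no read at all, so editing could not have been seen there. Both other colonies had 10 or more reads, summed over castes, at 8 of the 19, 3 of the 4 and 0 of the 2. The deepest such A-to-G site in a gene, in the 3' UTR of CG14411 (Aech_11033), had 9 edited of 177 reads in Ae322 (5.08%), 0 of 275 in Ae356, which allows up to 1.09%, and 0 of 171 in Ae363. A C-to-T coding site of b (Aech_08683), named for an enzyme of body colour in Drosophila, had 14 of 210 reads (6.67%) in Ae322, 0 of 145 in Ae356, which allows up to 2.07%, and 0 of 200 in Ae363. In the 3' UTR of the monocarboxylate transporter CG11665 (Aech_14367) 0 of 158 reads were edited in Ae322, 12 of 156 (7.69%) in Ae356 and 1 of 164 in Ae363. In an intron of RpL30 (Aech_00335), a ribosomal protein, it was 1 of 39 reads in Ae322, 0 of 18 in Ae356 and 12 of 68 (17.6%) in Ae363. These 4 were chosen after their values had been seen.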

How the data were processed

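The deposited table holds, for each editing site and library, counts of reads of each base, packed in 1 cell by the authors, per the file headers, on assembly Aech_2.0. Reads were aligned with BWA 0.5.9-r16, per the submitters' processing notes. How sites were called and duplicates handled is not given in the sources used here. RNA libraries were strand-specific and poly(A)-selected, per the labels' protocols.

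The colony is the group and the caste is a block. Levels were edited over all reads at sites with 10 or more reads in all 9 RNA libraries. Sites were tested with a quasi-binomial model (caste and colony, dispersion kept at 1 or above and moderated with squeezeVar of limma 3.58.1, R 4.3.3). Genes were tested with limma on arcsine-square-root mean levels, leaving out 21 sites that lie in more than 1 gene. Means were tested by exact permutation within castes (Python 3.11.15, NumPy 2.4.6, pandas 2.3.3, SciPy 1.17.1; plots with matplotlib 3.10.9). The site and gene fits were tested on simulated data, and the permutation test within castes on made values.

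Genes and sites named are the widest gaps per colony, rank and kind of change, the called genes, the genes with the most ranked sites, the smallest p per list, and Adar; others are marked as chosen later. No site was called, so the part of the rule on called sites gave none. The members and lists were chosen with earlier results of these data known. Alternatives covered coverage, level, kind of change, model, caste term, scaling and each library left out. Where nothing says that pools were replicated, p-values measure the spread between these libraries only.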

Additional observations from a re-analysis of the deposited data

Results flagged for a closer look

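The sign of 2 colony differences in mean level was not the same in all castes. Ae322 minus Ae363 was 0.424 points in gynes and 0.823 in large workers but -0.23 in small workers. Ae356 minus Ae363 was 0.0493 points in gynes but -0.242 in large workers and -0.356 in small workers. Each value rests on 1 library per colony and caste, and the difference between castes was not tested.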

How the results depend on the processing

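Of the alternatives to the 10 main results, 114 left the value within its limits and 31 moved it, and no direction was reversed. The count of sites differing among colonies, 0 in the main test, was 15 without the caste term, 1 with a trended and robust dispersion, 357 with no floor on the dispersion and 9 when sites averaging under 5% were left out. For Ae322 minus Ae356 these counts were 10, 2, 254 and 5, with 1 at a coverage minimum of 20 reads. For Ae322 minus Ae363 they were 1 without the caste term, 258 with no floor and 4 without sites under 5%. For Ae356 minus Ae363 they were 7, 4, 201 and 7. The 1 gene called became 0 at a coverage minimum of 5 or 20 reads and among genes with 3 or more tested sites, and bol, with 1 site and 11 reads in 1 library, is outside the last 2. With no floor on the dispersion, the fit can take a site's spread as smaller than counting error. The cause was not tested for the other changes.

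The share of sites keeping a rank, 17.4%, was 15.9% at a minimum of 5 reads, 20.4% without sites under 5% and 10.6% with thinned reads, an alternative chosen after seeing the data. Leaving out 1 library at a time called from 0 to 0 sites (120 to 162 unadjusted) and from 0 to 0 genes (33 to 39 unadjusted). The exact permutation p for mean levels then lay between 0.0833 and 0.444. The difference lay between 0.251 and 0.72 points for Ae322 minus Ae356, 0.0971 and 0.624 for Ae322 minus Ae363, and -0.299 and -0.0962 for Ae356 minus Ae363. The main tests already pair libraries of the same caste, with caste as the block, and the counts without the caste term are those without this replicate block. The replicate letters in the labels stand for the colony, which is the group compared, and pair nothing across colonies. Depth limits single sites: at the median of 54.0 reads the counting SD of a level of 7.26% is 3.53 points. The median gap of 1.52 is a smallest distance over castes and not the same measure.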

Other observations

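A pair of A-to-G sites without annotation, 5 bases apart on scaffold 17, kept opposite ranks. At position 294653 the level was 50.0, 25.0 and 53.3% in Ae322 gynes, large workers and small workers, 7.14, 0 and 22.4% in Ae356 and 18.5, 30.8 and 38.2% in Ae363, so Ae356 was lowest in each caste. At position 294658 it was 5.71, 9.38 and 25.5% in Ae322, 40, 50.0 and 41.9% in Ae356 and 23.3, 25.0 and 20% in Ae363, so Ae356 was highest. Both had between 14 and 75 reads per library and neither passed adjustment (quasi-binomial adjusted p = 0.748). They were chosen after their values had been seen.

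An A-to-G site without annotation at position 1461564 of scaffold 39 had 15.8, 13.6 and 15.4% in the Ae322 libraries and 0% in every library of Ae356 and Ae363. Edited reads were 8 of 54 in Ae322, 0 of 51 in Ae356 and 0 of 35 in Ae363. The authors marked this site as called in Ae322 libraries alone, so the 0 elsewhere is no independent support. At position 1466413 of scaffold 398 the level was 11.4, 23.7 and 20.7% in Ae322, 10.8, 11.8 and 12.1% in Ae356 and 0, 0 and 0.877% in Ae363, where 1 of 265 reads was edited. The sites on scaffolds 39 and 398 were likewise chosen after their values had been seen.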
